A study of Mus musculus with 8 samples.

Results

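Wybutosine is a bulky modified guanosine that cytosolic phenylalanine tRNA carries at the base directly after its anticodon. There it stabilises the pairing of tRNA and codon and helps to hold the reading frame. It is built in steps. Trmt5 first methylates the guanosine, Tyw1, an iron-sulfur enzyme of the radical SAM class, adds carbons from pyruvate to make the tricyclic base, Trmt12 (also called Tyw2) transfers a side chain, Tyw3 methylates the ring and Lcmt2 (also called Tyw4) completes the molecule.

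The 5 genes of this pathway, Tyw1, Tyw3, Trmt5, Trmt12 and Lcmt2, were examined in cortex with and without Ptbp2, a neuronal RNA-binding repressor of alternative exons. Tyw1 was picked because its level was higher in the knockout in these same arrays, and the other 4 genes because of their place in the pathway, so the Tyw1 values are given as a description without a test. Members were all probe sets annotated to exactly 1 of these symbols, 44 of the 625534 on the array, with 18 for Tyw1, 10 for Tyw3, 6 for Trmt5 and 5 each for Trmt12 and Lcmt2. Cortical RNA of embryos at day 18.5 of gestation, from a mixed CD1 and C57BL/6 background, 4 wild type and 4 Ptbp2 knockout, was measured on Affymetrix exon arrays with 1 array per embryo. How the Ptbp2 allele was made, and the sex of each embryo, are not stated in the labels. Signals are log2 RMA values of single probe sets, each of which covers a short stretch of a gene. Positions of the probe sets within their genes were not used here, so a probe set is named by its number and not by an exon.

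The medians of the 8 arrays spanned 6.82 to 6.93, and 4 arrays per group set the precision. The targeted gene matched the labels: Ptbp2 was at 11.08 to 11.40 in wild type and at 5.54 to 6.24 in knockout cortex. The knockout values lay below the signal filter of 6.84, the median over all probe sets. The cortical genes Neurod6, Bcl11b, Tbr1 and Emx1 were all measured above this filter in both groups, as were En1, Gbx2, Lhx9 and Barhl2, markers of other brain regions. Of 10 marker lists, summed over their tested genes, 9 overlapped between the groups. The list that did not was the striatal one, at 11.47 to 11.82 in wild type and 10.83 to 11.28 in knockout cortex, with 6 of 6 genes lower in mean. Among the overlapping lists, all 5 oligodendrocyte lineage genes were lower in mean (10.76 to 11.08 against 10.66 to 10.80). All 6 choroid plexus genes were also lower in mean (13.50 to 13.56 against 10.37 to 13.54), with the lowest sum in knockout 2. The mean log2 signal of the 6 was 7.39 in knockout 2 and 8.72 to 9.14 on the other knockout arrays. In wild type it was 8.95 to 9.09, so the lower means rested largely on knockout 2. Ttr, 1 of these genes, was at 9.36 on that array and at 13.18 to 13.34 on the other knockout arrays. Of 8 microglial genes 7 were higher in mean and P2ry12 was lower (-0.30), and the sum of the 4 with enough probe sets to be tested was 10.01 to 10.43 against 10.33 to 10.67. Of all 12960 genes tested, 51% were higher in mean, 218 were higher and 255 lower without overlap, and 0.116% passed the limma test. No gene of these lists passed it, and the part of the lists in the values of the pathway genes was not tested. In a whole tissue, more RNA per cell and more cells that make it cannot be told apart.

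In the RefSeq annotation of build GRCm38.p6, Tyw1 is a protein-coding gene at chr5:130255572-130341568, Tyw3 lies at chr3:154576520-154597113, Trmt5 at chr12:73268515-73286975, Trmt12 at chr15:58872649-58876781 and Lcmt2 at chr2:121137292-121140698. RefSeq start windows were found for 4 of the 5 genes, with 2 starts for Tyw1 that lie 1418 bases apart. The 250 bases before each start were searched on both strands for the TATA box letters TATAAA, the CCAAT box, the GC box letters GGGCGG and the cAMP response element TGACGTCA, letters chosen after the windows were seen. TGACGTCA occurred 14 to 7 bases before the upstream Tyw1 start and 23 to 16 bases before the Trmt5 start, and in 1.55% of 32851 windows in the table. The stretches around these matches are shown because Tyw1 was the member that was higher and Trmt5, the enzyme just before it in the pathway, holds the same letters; capitals mark TGACGTCA, at chr5:130255589-130255618 on the plus strand and chr12:73286721-73286750 on the minus strand. Both stretches lie inside the annotated span of their gene, so other annotated transcripts begin further upstream.
Tyw1: gcgggtcgttctgtgaTGACGTCAtttaca
Trmt5: tcgcggccagcagtgaTGACGTCAccagcc
CCAAT was in the Tyw3 window and the downstream Tyw1 window (33.8% of all windows), GGGCGG in the downstream Tyw1 window (32.7%), and TATAAA in none of the 5 windows of these genes (12.4%). No matches overlapped each other, and a match of letters is a description of the sequence.

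Tyw1, the gene for the radical SAM step, was higher in knockout cortex in most of its probe sets, and a pair of them was higher by much more than the rest. Its gene value, the median over its probe sets on each array, was 8.66, 8.44, 8.41 and 8.48 in wild type 1 to 4 and 9.57, 9.16, 9.59 and 9.56 in knockout 1 to 4. All 4 knockout arrays lay above all 4 wild type arrays, and knockout 2 was the lowest of its group. The means were 8.50 ± 0.11 (SD, n = 4) and 9.47 ± 0.21 (SD, n = 4), a log2 difference of 0.97 (SE 0.11) or 1.96-fold. Of 12960 genes tested, 1.68% were higher in knockout without overlap between the groups and 0.116% passed the limma test at an adjusted 0.05.

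**Figure D1:**
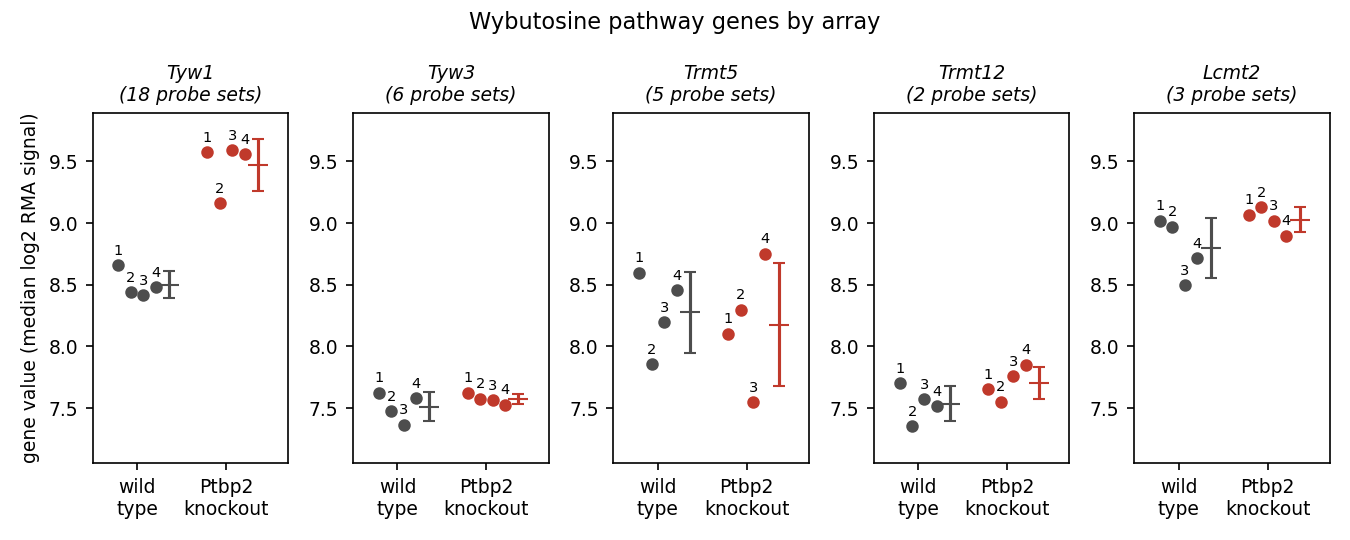
Gene values (median log2 RMA signal over the probe sets that passed the signal filter) of the 5 wybutosine genes on each array, numbered by replicate; bars give the mean and SD of 4 arrays. The Tyw1 arrays separate, with 8.41 to 8.66 in wild type and 9.16 to 9.59 in knockout, while the groups overlap in the other 4 genes.

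The question of whether the whole of Tyw1 or a part of it was higher was read from its 18 probe sets, all of which passed the signal filter, 1 of them (4405004) only through its knockout arrays. The mean was higher in knockout in 18 of 18, and 14 of 18 (77.8%) were higher without overlap, where 2.73% of the 312767 retained probe sets were. Of the 17 with both group means above the filter, 13 were higher without overlap. The median of the 18 differences was 0.67. The 14 without overlap differed by at least 0.52, and the 4 whose groups overlapped by at most 0.36.

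A pair of probe sets stood above the rest of the gene. Probe set 4495549 was at 6.83, 6.75, 6.93 and 6.97 in wild type 1 to 4 and at 9.64, 9.22, 9.80 and 9.58 in knockout 1 to 4. Its wild type arrays lay close to the signal filter of 6.84, its knockout arrays far above it, and the difference was 2.69 (SE 0.14). Probe set 4405004 was at 6.81, 6.96, 6.58 and 6.34 in wild type and at 8.65, 8.41, 8.35 and 8.78 in knockout. This second probe set also went from the level of the filter to clearly above it, by 1.88 (SE 0.16). The wild type means, 6.87 for 4495549 with 2 of 4 arrays below the filter and 6.67 for 4405004, may be background signal, so both differences are inexact and no fold is given. Relative to the other probe sets of Tyw1 (limma diffSplice), 4495549 deviated by 2.02 and 4405004 by 1.16, while the next highest deviated by 0.079 and the lowest by -0.64.

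The other 16 probe sets differed by 0.17 to 0.85, with a median of 0.66. Probe set 5223118 is an example with little spread: it was at 9.60, 9.47, 9.48 and 9.69 in wild type and at 10.45, 10.19, 10.49 and 10.48 in knockout, a difference of 0.85 (SE 0.12). Probe set 4681795 was at 10.11, 9.84, 9.76 and 10.11 in wild type and at 10.61, 10.64, 10.54 and 10.63 in knockout, a difference of 0.65 (SE 0.12). Both show groups set well apart, by less than 2-fold. The other 10 without overlap were 4850195 (0.85), 4493902 (0.81), 4779019 (0.73), 5575079 (0.70), 4403541 (0.69), 5157750 (0.68), 5057895 (0.67), 5053625 (0.63), 5099672 (0.58) and 4755501 (0.52), given as log2 differences.

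The 4 probe sets whose groups overlapped were 4444819 (0.36), 4622316 (0.36), 4778418 (0.22) and 5282943 (0.17). Probe set 4778418 was at 9.59, 9.41, 9.24 and 9.68 in wild type and at 9.65, 9.68, 9.83 and 9.65 in knockout. Here the knockout arrays lay at the upper end of the wild type range or just above it. Probe set 5282943 was at 6.72, 6.92, 7.01 and 7.01 in wild type and at 6.86, 7.08, 7.43 and 6.95 in knockout, near the signal filter in both groups. The median of these 4 probe sets on each array was 8.72 ± 0.25 (SD, n = 4) in wild type and 9.05 ± 0.063 (SD, n = 4) in knockout, a difference of 0.33.

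**Figure D2:**
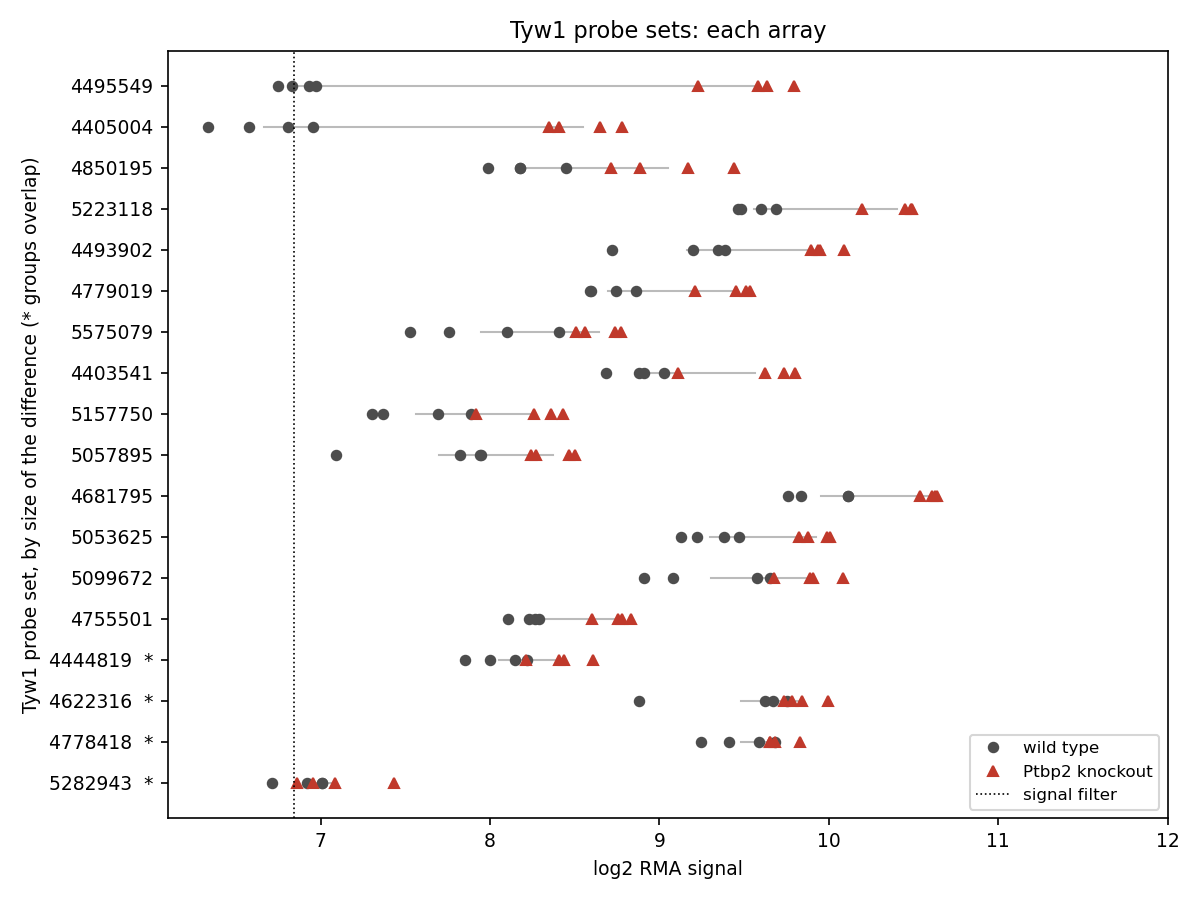
Log2 RMA signal of each Tyw1 probe set on each of the 8 arrays (circles, wild type; triangles, Ptbp2 knockout), ordered by the difference of the group means, which the grey lines join. Probe sets 4495549 and 4405004 start near the signal filter (dotted line, 6.84) in wild type and are higher by 2.69 and 1.88; 12 others are higher without overlap, and 4 marked with an asterisk overlap.

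The size of the Tyw1 gene value depended on that pair, and its direction did not. Without 4495549 the gene value was 8.70 ± 0.13 (SD, n = 4) in wild type and 9.40 ± 0.20 (SD, n = 4) in knockout, a difference of 0.70 or 1.63-fold. With the 17 probe sets whose means lay above the filter in both groups it was 0.84 or 1.79-fold. Without both probe sets of the pair the difference was 0.71, and with the mean over all 18 in place of the median it was 0.78. With the 10 probe sets above the 75th percentile of signal, which leave the pair out, it was 0.57. The gene value of 0.97 is thus larger than the difference of a typical Tyw1 probe set, and the groups stayed apart without the pair, at 8.64 to 8.95 in wild type and 9.16 to 9.59 in knockout.

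Against all 8137 genes with at least 10 retained probe sets, Tyw1 was both broad and uneven, as a description of the contrast it was picked from. The share of probe sets higher without overlap was at least as large as in Tyw1 in 4 of these genes, Tyw1 itself included. The others were Osbpl5, an oxysterol-binding protein relative (91.3% of 23), Ptprr, a receptor-type tyrosine phosphatase (83.3% of 18), and Spp1, osteopontin (80.0% of 10). The SD of the differences over the probe sets of a gene was 0.60 in Tyw1, against a median of 0.14, and 5 genes reached it with Tyw1 counted.

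Knockout 2 was lowest of the 4 knockout arrays in 12 of the 18 Tyw1 probe sets. Its median offset from the mean of the other knockout arrays was -0.18 over the Tyw1 probe sets and -0.060 over all retained probe sets. Both were the lowest offsets among the 4 knockout arrays, so knockout 2 was also low outside Tyw1. The same array had little choroid plexus RNA: Ttr was at 9.36 there, against 13.18 to 13.34 on the other knockout arrays. The summed level of 6 choroid plexus genes was 10.37 there, against 13.50 to 13.56 in wild type and up to 13.54 in knockout. Without knockout 2 the Tyw1 difference was 1.08.

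Trmt5, which makes the methylated guanosine that Tyw1 acts on, did not pass the test. Its gene value over 5 retained probe sets was 8.60, 7.85, 8.20 and 8.46 in wild type and 8.10, 8.30, 7.55 and 8.75 in knockout. On every array but wild type 1 this median was the value of probe set 4683652, which differed by -0.13 (SE 0.25). Its 5 retained probe sets differed by -0.13 to 0.24, with 3 higher and 2 lower in mean. The knockout arrays spanned the whole wild type range and beyond. The log2 difference was -0.10 (SE 0.20, 95% confidence interval -0.53 to 0.33, limma adjusted p = 0.98), and its sign turned without wild type 1 (0.0048), without knockout 3 (0.11) and with the mean of the probe sets (0.043). Of its probe sets, 5304782 had the smallest p, with 8.60, 8.51, 8.61 and 8.62 in wild type and 8.79, 8.83, 8.77 and 8.89 in knockout. These groups did not overlap, but the difference of 0.24 (SE 0.10) did not pass (limma adjusted p = 0.65).

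Trmt12, the side-chain transferase after Tyw1, was covered by 2 retained probe sets, fewer than the 4 asked of a gene in the test, so it was fitted with a minimum of 1. It was at 7.70, 7.35, 7.57 and 7.51 in wild type and at 7.65, 7.55, 7.76 and 7.85 in knockout. The groups overlapped, with a difference of 0.17 (SE 0.11, 95% interval -0.060 to 0.40, limma adjusted p = 0.80), and of 0.11 without wild type 2. In that fit of 17875 genes 0.028% passed. The sign turned to -0.17 with no signal filter, where the 3 dim probe sets count too. Its probe set with the smallest p, 4407644, differed by 0.21 (limma adjusted p = 0.81).

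Tyw3, the ring methyltransferase, showed the narrowest interval of the 4 genes. It was at 7.63, 7.47, 7.37 and 7.58 in wild type and at 7.62, 7.58, 7.57 and 7.53 in knockout. The knockout arrays all fell within the wild type range. The difference was 0.062 (SE 0.090, 95% interval -0.13 to 0.25, limma adjusted p = 0.96), so a rise above 1.19-fold lay outside the interval; without wild type 3 it was 0.014 and with no signal filter -0.044. Of its 6 retained probe sets 3 were higher and 3 lower in mean, from -0.13 to 0.23. The smallest p was that of 5613412 (7.48, 7.29, 7.47 and 7.50 against 7.66, 7.55, 7.84 and 7.61, limma adjusted p = 0.70).

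Lcmt2, the enzyme of the last steps, had 3 retained probe sets and was fitted like Trmt12. It was at 9.02, 8.97, 8.50 and 8.71 in wild type and at 9.07, 9.13, 9.02 and 8.90 in knockout. On every array this median was the value of a single probe set, 4728727. The 3 retained probe sets differed by 0.23 to 0.34, and 4728727 had the lowest difference. Wild type 1 and 2 lay within the knockout range, and wild type 3 and 4 below it. The difference was 0.23 (SE 0.12, 95% interval -0.037 to 0.49, limma adjusted p = 0.77), and 0.13 without wild type 3. Probe set 5570082 was at 9.81, 9.64, 9.83 and 9.77 in wild type and at 10.24, 10.03, 10.07 and 10.06 in knockout. The groups were apart, by 0.34 (SE 0.11), and the probe set did not pass over all retained probe sets (limma adjusted p = 0.50).

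Together these 4 genes had 26 probe sets, of which 16 passed the signal filter. With limma 0 of the 16 passed, where 0.0921% of all retained probe sets did, and 2 were under an unadjusted 0.05, where 7.44% of all were. In mean 11 of the 16 were higher and 5 lower, and 55.6% of all retained probe sets were higher. Of the 16, 4 were higher without overlap (2 of Tyw3, 1 each of Trmt5 and Lcmt2) and 0 lower, where 2.73% of all retained probe sets were higher in this way. Relative to their genes, 0 of the 11 probe sets of Tyw3 and Trmt5 passed in diffSplice or in the splicing index, a probe set minus its gene value, with 0 at an unadjusted 0.05 in either. Over all probe sets compared, 0.216% passed in diffSplice and 0.0107% in the splicing index.

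**Figure D3:**
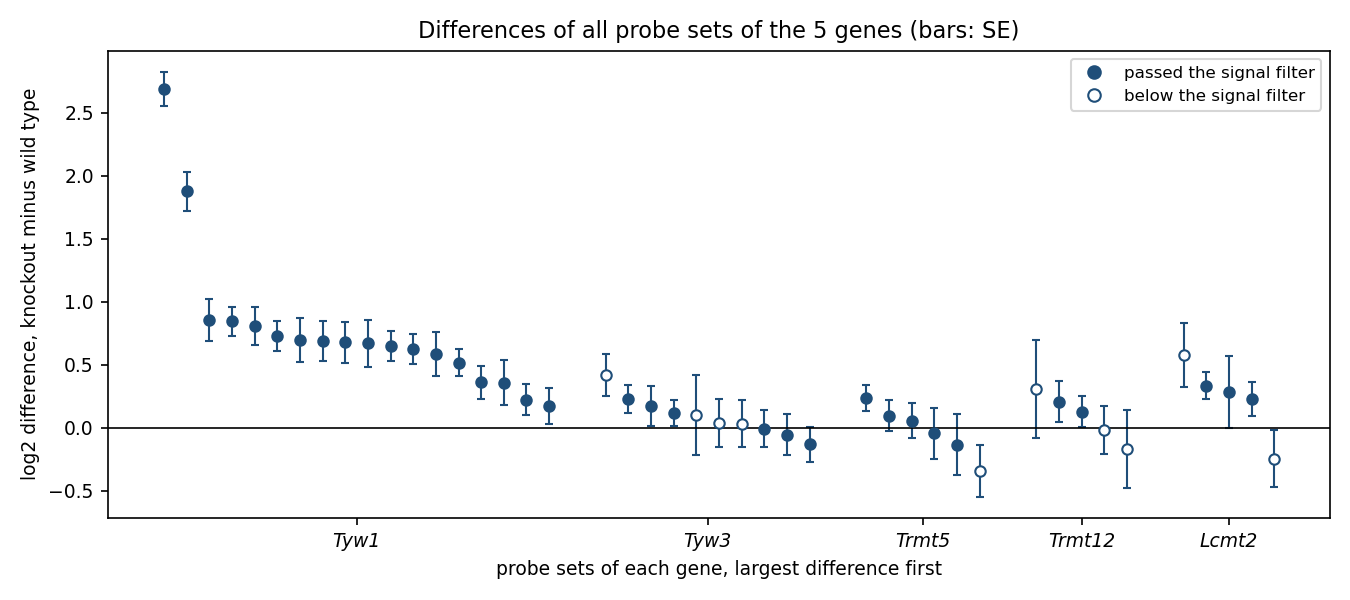
Log2 difference (knockout minus wild type) with its SE for all 44 probe sets of the 5 genes, open where the probe set was below the signal filter. Every Tyw1 probe set lies above 0, a pair of them at 2.69 and 1.88, and those of the other 4 genes lie between -0.34 and 0.58.

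Related genes outside the 5 members were compared next. Tyw5, a hydroxylase of the wybutosine pathway, differed by 0.12 (SE 0.12, limma adjusted p = 0.94). Trmt112, a small activating partner of several methyltransferases, differed by -0.026 (limma adjusted p = 0.99). Of 27 other tested enzymes that modify tRNAs in the anticodon loop, 18 were higher and 9 lower in mean, with a median of 0.035. The smallest p belonged to Trit1, which adds an isopentenyl group to the base after the anticodon (0.29), Qtrt2, a subunit of the queuine transferase (0.28), and Trmu, a mitochondrial enzyme that thiolates tRNA (0.23), with limma adjusted p of 0.68 to 0.75. Of 32 other tRNA methyltransferases and of enzymes that make pseudouridine or dihydrouridine, 23 were higher and 9 lower, with a median of 0.081. The smallest p were those of Dus4l, a dihydrouridine synthase (0.37), Trmt6 (0.18), a subunit of an adenosine methyltransferase, and Dus1l (0.15), with limma adjusted p of 0.54 to 0.83.

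Farsa (0.13) and Farsb (-0.0049) encode the subunits of the cytosolic phenylalanyl-tRNA synthetase, which charges the tRNA that carries wybutosine, and Fars2 (0.044) encodes the mitochondrial one. Tyw1 needs iron-sulfur clusters, and of 7 genes of cytosolic cluster assembly 6 were higher in mean, with a median of 0.12. Ciao1, a scaffold of the targeting complex, had the smallest p (0.23, limma adjusted p = 0.77), followed by Nubp2 (0.21) and Ciao3 (0.14). Over all 71 listed genes tested, 0 passed with limma in either direction, where 0.116% of all genes did, and 4 were higher and 0 lower at an unadjusted 0.05, where 2.7% of all genes were higher and 3.79% lower. In mean 50 of the 71 (70.4%) were higher, where 51% of all genes were. The median over the 71 was 0.057, against 0.0027 over all genes, and it was -0.0022 without wild type 3.

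The genes next to Tyw1 in the RefSeq gene order were given as a description of its surroundings. The 5 tested genes on one side were Sbds (-0.060), a ribosome maturation factor, Tmem248 (-0.11), Rabgef1 (-0.13), an activator of Rab proteins, Kctd7 (-0.023) and Tpst1 (0.15), a protein sulfotransferase. Those on the other side were Caln1 (-0.054), a calcium-binding protein of neurons, Galnt17 (0.036), Auts2 (-0.15), Castor2 (-0.084) and Rcc1l (0.21). All 10 overlapped between the groups, and none passed the limma test (adjusted p of 0.77 or more). Most genes did likewise: of all 12960 tested, 218 were higher and 255 lower without overlap, and 0.116% passed.

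**Figure D4:**
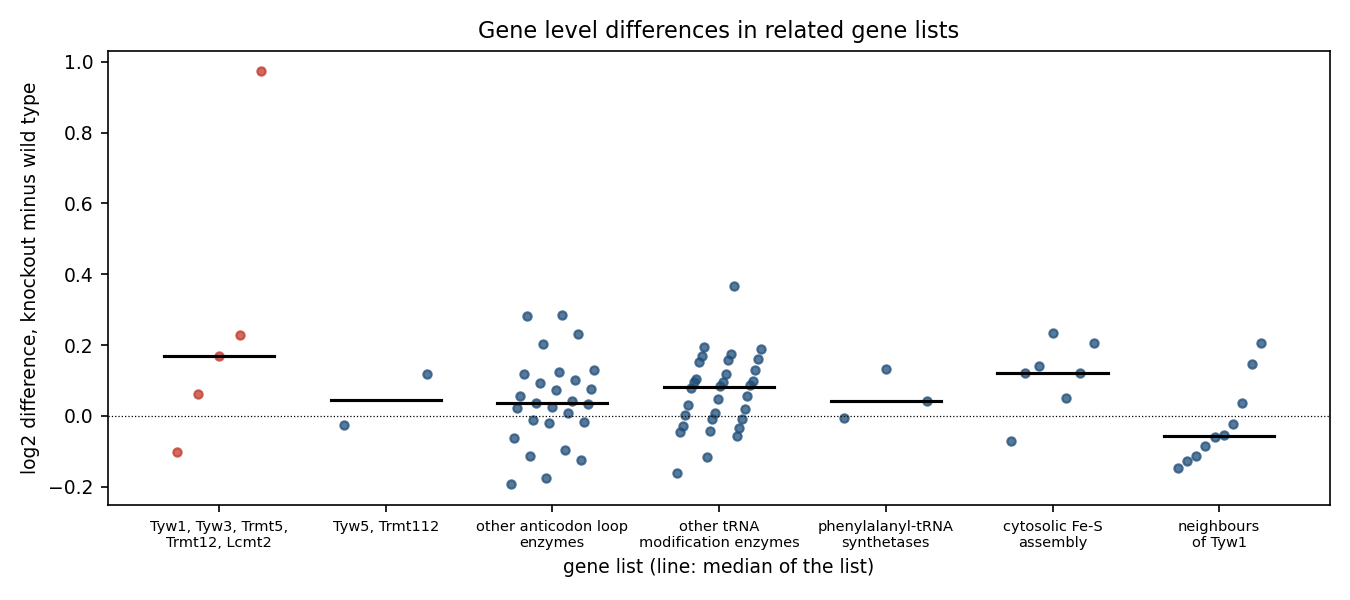
Gene level log2 differences (knockout minus wild type) of the 5 wybutosine genes, of 71 genes in 5 related lists and of the 10 tested neighbours of Tyw1; black lines are list medians. Tyw1 lies at 0.97, and all other genes drawn lie between -0.19 and 0.37.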

How the data were processed

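Each deposited value is the log2 signal of a probe set on an array, made with RMA and Affymetrix Expression Console on build mm9, per the submitters' processing notes, which give no versions. RMA corrects background, equalises the signal distributions of the arrays and summarises probes, which removes differences in total RNA and compresses low signals. A platform annotation gave 1 symbol to 303629 of 625534 probe sets; older symbols were updated through the RefSeq table of GRCm38.p6. Probe sets whose mean reached the median of all (6.84) were retained (312767), and a gene was tested with at least 4 retained probe sets (12960), as their median.

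Knockout and wild type were compared in limma 3.58.1 (R 4.3.3; lmFit, then eBayes) over all genes or probe sets, without covariates, with Benjamini-Hochberg adjustment at 0.05; every adjusted p is from limma. Usage was compared with diffSplice and the splicing index. Samples are stated to be biological replicates. Members, lists and tests were chosen with earlier results of these data known. Named genes were all members, every Tyw1 probe set, the smallest-p probe set of each other member, the 3 smallest p of each list, 5 tested neighbours on each side of Tyw1 and the 5 genes most like it. Same-numbered arrays did not deviate together throughout (r of -0.0039 to 0.25), so the numbers were not taken as pairs. In simulated arrays with 100 genes changed by a log2 of 1 among 12960, 97% were recovered, and 31% of 100 changed by 0.5. Alternatives were single arrays left out, a replicate block, other filters, normalizations, fits and summaries, and Tyw1 without its strongest probe sets, the pair together being added after seeing the data.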

Additional observations from a re-analysis of the deposited data

Results flagged for a closer look

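In groups of 4 arrays, a value is named here when its gap to the nearest other array takes up more of the group's range than Dixon's critical value, which chance gives in about 1 in 20 groups; 5 of 78 group values examined met this. The Tyw1 gene value was 9.16 in knockout 2, against 9.56 to 9.59 on the other knockout arrays. Tyw1 probe set 5223118 was at 10.19 in knockout 2, against 10.45 to 10.49. In wild type 3, Tyw1 probe set 4622316 was at 8.88, against 9.63 to 9.75, and probe set 5057895 was at 7.09, against 7.83 to 7.95. Tyw3 probe set 5613412 was at 7.29 in wild type 2, against 7.47 to 7.50.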

How the results depend on the processing

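With single arrays left out, the Tyw1 level ranged from 0.93 to 1.08, its level without the largest probe set from 0.66 to 0.80, and the number of its probe sets higher without overlap from 14 to 17. The Tyw1 level moved to 0.57 with the filter at the 75th percentile, where 8 of 10 probe sets were higher without overlap, to 0.78 with the mean and to 0.71 without the pair of largest probe sets. Trmt5 ranged from -0.29 to 0.11 with single arrays left out; it turned to 0.081 without wild type 3 and knockout 3 together and to 0.043 with the mean. With single arrays left out, Tyw3 ranged from 0.014 to 0.10, Trmt12 from 0.11 to 0.22 and Lcmt2 from 0.13 to 0.30. With no signal filter Tyw3 was -0.044 and Trmt12 -0.17. The causes were not tested. The median over the tRNA modification lists ranged from -0.0022 (without wild type 3) to 0.10 with single arrays left out. A replicate block leaves the Tyw1 level at 0.97 by design, since each replicate number occurs once per group, and no member's call changed under it. No setting made Tyw3, Trmt5, Trmt12 or Lcmt2 pass. Few retained probe sets limit Trmt12 and Lcmt2.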

Other observations

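The tested genes whose values over the 8 arrays followed Tyw1 most closely were Ccar2, a regulator of deacetylases (Pearson r = 0.96), 4930578M01Rik (0.96), Osbpl5 (0.95), Vasp, an actin regulator (0.95), and Gpr26, an orphan receptor (0.95). All 5 were higher in knockout without overlap, by log2 differences of 0.15, 0.35, 0.70, 0.19 and 0.62, so this likeness carries the group difference that Tyw1 was picked for. When each array was taken as its deviation from its group mean, which removes that difference, the most similar genes were others. They were Emb, a cell adhesion protein, Sox9, a factor of glial progenitors, Pcdhb3, a clustered protocadherin, Exosc4, an RNA exosome subunit, and Tcaim. Their r was 0.98 each over 8 arrays, picked as the highest among the 12960 genes tested, so high values were selected. In all 5 knockout 2 was the lowest knockout array, as it was in Tyw1, and Emb was at 7.34 there against 8.04 to 8.11 on the other knockout arrays. Wild type Sox9 lay at 8.94 to 9.12 and knockout Sox9 at 8.51 to 8.92, lower without overlap, with a log2 difference of -0.23 that did not pass (limma adjusted p = 0.76).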
